A study of Homo sapiens with 44 samples.

Results

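The response of Ccd18-Co colon fibroblasts to IL-13 was examined as the comparison of 4 libraries labelled IL13 with 4 libraries labelled unstimulated, which are 8 of the 44 libraries of the series. These were chosen by their labels alone. The assay was ATAC-seq, which reads out where a transposase can enter DNA, so that read coverage in a region measures how open its chromatin is. Ccd18-Co is an established human colon fibroblast line, used here as 1 line with no other genotype. Cells were kept in serum-free medium, without cytokine in the unstimulated group and with IL-13 at 10 ng/ml in the IL13 group. The other 9 groups of 4 libraries received IL1B, IL6, IL17A, IL22, IFNA, IFNG, TGFB1, TNF or OSM. IL1B was given at 0.1 ng/ml and the rest of these at 10 ng/ml, so comparisons with IL1B are across unlike doses. The comparison asked where IL-13 alone opened or closed chromatin in these cells. Of 407383 deposited peaks, 407174 passed a filter on low coverage and were tested.

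IL-13 is a cytokine of type 2 immunity that acts on epithelium, smooth muscle and fibroblasts, where it is known for inducing eotaxins, periostin and matrix genes. It binds a receptor made of IL4R and IL13RA1, whose associated Janus kinases phosphorylate STAT6. Dimers of STAT6 enter the nucleus and prefer a palindrome with a wider spacing between its arms than other STAT proteins do, while SOCS proteins restrain the signal and IL13RA2 binds the cytokine as a decoy.

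Stretches of called peaks are shown first, chosen because they hold a match to letters that are counted further on. They do not show how often these letters occur among the peaks that changed most. All are from hg38, + strand, 101 bases each. Capitals in the first 6 mark every match to TTCNNNNGAA, the letters of the STAT6 palindrome, which reads the same on both strands. The first 4 are peaks with among the highest rises, the fifth lies in an intron of CCL26 and the next lies downstream of CISH.
IRF2 distal chr4:184547462-184547562: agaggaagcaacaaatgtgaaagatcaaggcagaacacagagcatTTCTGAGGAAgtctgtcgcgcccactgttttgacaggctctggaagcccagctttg
LINC02458 distal chr12:89179323-89179423: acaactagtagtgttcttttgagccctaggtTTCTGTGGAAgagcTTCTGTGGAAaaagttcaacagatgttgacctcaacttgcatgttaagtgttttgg
ARHGAP5-AS1 intronic chr14:32109819-32109919: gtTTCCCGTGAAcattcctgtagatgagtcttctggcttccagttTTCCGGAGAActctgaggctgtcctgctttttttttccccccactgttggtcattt
DUOXA2 distal chr15:45088849-45088949: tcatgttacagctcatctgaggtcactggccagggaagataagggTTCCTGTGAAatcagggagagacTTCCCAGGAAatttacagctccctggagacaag
CCL26 intronic chr7:75772220-75772320: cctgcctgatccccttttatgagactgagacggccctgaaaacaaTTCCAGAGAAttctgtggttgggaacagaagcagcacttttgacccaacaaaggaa
CISH downstream chr3:50601183-50601283: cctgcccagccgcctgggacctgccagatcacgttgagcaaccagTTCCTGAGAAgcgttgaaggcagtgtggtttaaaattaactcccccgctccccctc

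Capitals in the following 3 mark matches to TGANTCA, the letters of the AP-1 site bound by FOS and JUN proteins, which also reads the same on both strands. They come from peaks with among the deepest falls.
SIM1 distal chr6:100296871-100296971: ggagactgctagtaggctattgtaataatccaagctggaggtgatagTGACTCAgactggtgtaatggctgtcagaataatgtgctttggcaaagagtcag
POPDC3 intronic chr6:105174626-105174726: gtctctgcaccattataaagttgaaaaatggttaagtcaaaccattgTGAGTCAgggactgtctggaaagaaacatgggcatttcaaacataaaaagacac
LOC101928322 distal chr10:10589662-10589762: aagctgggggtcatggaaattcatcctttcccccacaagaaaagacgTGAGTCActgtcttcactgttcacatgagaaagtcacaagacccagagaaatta
The LINC02458 and DUOXA2 stretches each carried a pair of matches, as did that of ARHGAP5-AS1. A match describes the letters of the reference genome and does not show that a factor was bound.

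Several properties of the libraries bear on what follows. Total coverage in peaks was 239.8 to 656.1 Mb in the 4 IL-13 libraries and 328.6 to 524.4 Mb in the 4 unstimulated libraries, and peaks without any coverage made up 3.26 to 15.5% of the table against 3.53 to 10.9%. Values below are coverage per Mb of library total after a composition factor, each for a peak of 501 bases. No label says that the 4 replicates of a group came from separate cultures, so p-values measure the spread between these samples, which may be technical. The library labelled IL6 replicate 4 went against its label. It was the shallowest of all, with 148.8 Mb and 27.1% of peaks without coverage, and it correlated best with an IL-13 library. It enters the composition factors, the filter on low coverage, the shared estimate of spread and the comparisons with other cytokines. The numbers of calls are also given with this library left out of the fit, keeping the same factors and filter. P-values and differences from other cytokines at named peaks include this library. One of the IL-13 libraries, replicate 4, correlated best with a library of the IL6 group. Every unstimulated, IL17A and IL22 library did so too, so that match does not set this library apart.

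The line carried open starts of fibroblast genes. Start peaks were found for 12 of 13 fibroblast markers, with a summed level of 144.1 to 157.9 per Mb in unstimulated and 156.1 to 178.3 with IL-13, and limma called 0 of the 12 (3 at an unadjusted p under 0.05). Leukocyte markers had a start peak for 3 of 10 genes (summed level 28.9 to 34.1 against 26.6 to 36.2) and endothelial markers for 8 of 8 (7.96 to 13 against 9.88 to 13.1), with 0 called in either list and 0 at an unadjusted p under 0.05. Epithelial markers had one for 7 of 12 genes, summing to 11.2 to 15.5 in unstimulated and 7.64 to 9.78 with IL-13, and EPCAM was lowered (log2 change -1.30, limma adjusted p = 0.00817). Smooth muscle markers, 4 of 5 with a start peak, summed to 33.4 to 40.6 in unstimulated and 50.1 to 66.2 with IL-13. By group means, ACTG2 alone made up most of these sums and of their rise. Its coverage in each library is given further on, with the contractile genes. Limma called 1 of the 4, ACTG2, as raised (log2 change 0.77, adjusted p = 9.42e-06), with 2 at an unadjusted p under 0.05. Of the starts of all coding genes, 1.43% rose, 0.363% fell and 14.2% had an unadjusted p under 0.05 in limma's test. In bulk libraries, a change in the number of cells of a type and a change within each cell cannot be told apart.

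IL-13 raised 2971 peaks and lowered 3582, which is 0.730% and 0.880% of those tested. A call is an adjusted p under 0.05, from limma's moderated test fitted over all 44 libraries with Benjamini-Hochberg adjustment over all tested peaks. At an unadjusted p under 0.05 there were 45972 peaks. Changes were taken as differences of log2(coverage per Mb + 0.5), so those of low peaks come out too small. The median change was 0.95 among raised peaks, -1.0 among lowered peaks and -0.046 among all tested peaks. A log2 change of at least 1 was reached by 1309 raised and 1777 lowered peaks. Without unstimulated replicate 4 there were 1845 raised and 2246 lowered peaks, 4091 in all against 6553, and without IL-13 replicate 2 there were 2259 lowered peaks. Correction for GC content left 3087 raised and 2344 lowered, so the balance of raised and lowered peaks depended on that choice, whereas without IL6 replicate 4 the calls numbered 3634 and 4499.

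**Figure D1:**
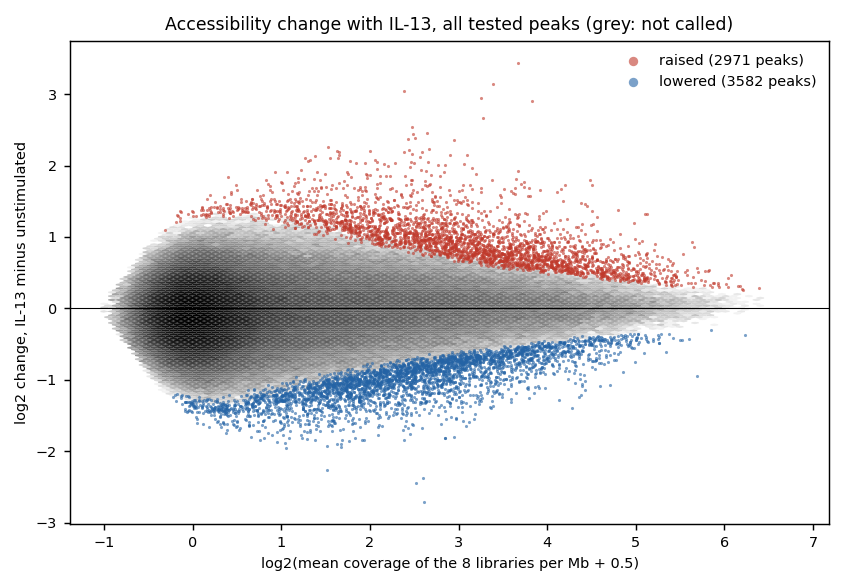
Log2 change of each tested peak with IL-13 (vertical axis, IL-13 minus unstimulated) against the log2 of its mean coverage per Mb + 0.5 over the 8 libraries (horizontal axis), with raised peaks in red, lowered peaks in blue and peaks without a call in grey (darker where denser). The 2971 raised and 3582 lowered peaks lie above and below 0, the highest change is 3.44 and the lowest -2.70.

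The largest rise was at a distal peak 73 kb upstream of IRF2, an interferon regulatory factor that represses interferon genes (chr4:184547311-184547811). Its coverage was 2.03, 1.60, 1.07 and 2.02 per Mb in unstimulated replicates 1 to 4 and 21.6, 23.2, 21.9 and 24.2 with IL-13. The groups lay far apart, with means of 1.68 ± 0.453 and 22.7 ± 1.22 (SD, n = 4 each), a log2 change of 3.44 ± 0.32 (SE) and a limma adjusted p of 4.91e-18. It was the 1 raised peak among 54 tested within 100 kb. At the start of IRF2 itself, coverage was 17.3 in unstimulated and 18.3 with IL-13, a log2 change of 0.03 (adjusted p = 0.966).

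A distal peak deposited under LINC02458, 173.1 kb from the start of DUSP6, had the third largest rise (chr12:89179134-89179634). It held 0.178, 0.587, 1.30 and 0.683 per Mb in unstimulated and 8.43, 8.21, 10.4 and 7.98 with IL-13. Every IL-13 library was above every unstimulated one, and the log2 change was 3.04 ± 0.40 (limma adjusted p = 2.35e-09). Near DUOXA2, the maturation factor of the dual oxidase DUOX2 that makes hydrogen peroxide at mucosal surfaces, a distal peak held 1.00, 2.02, 0.768 and 1.31 in unstimulated (chr15:45088647-45089147). With IL-13 it held 6.92, 11.3, 8.30 and 7.50, a log2 change of 2.37 ± 0.32 (limma adjusted p = 8.28e-09). The intronic peak in ARHGAP5-AS1 rose from 1.26, 0.870, 1.36 and 1.36 to 12.5, 7.99, 7.16 and 8.27 (log2 change 2.45 ± 0.33, limma adjusted p = 5.76e-09).

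These 4 belong to 12 lead raised peaks, the largest rises with a mean of at least 1 per Mb, no overlap between the groups and at least 100 kb between one another. All 4 IL-13 libraries lay above all 4 unstimulated libraries at 2.69% of tested peaks, and below them at 3.17%. The other 8 were deposited under RMI2, LINC01656, CSNK1A1L, FTCD, LOC100288798, LINC01936, MIR544B and GPRIN3, with log2 changes from 2.24 at GPRIN3 to 3.13 at RMI2. Their highest unstimulated library reached 4.17 per Mb at LINC01936. TTCNNNNGAA stood in 10 of the 12, the exceptions being RMI2 and FTCD. Each lead name is the gene in the deposited peak name, which does not show which gene a peak acts on.

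The deepest fall was 9.6 kb downstream of the start of PTGS2, the inducible cyclooxygenase of prostaglandin synthesis. A second lead fall was at the distal peak deposited under SIM1 (chr6:100296660-100297160), which held 9.34, 9.28, 9.62 and 9.63 per Mb in unstimulated and 1.71, 0.332, 1.82 and 2.76 with IL-13, a log2 change of -2.37 ± 0.19 (limma adjusted p = 1.16e-22). An intronic peak 33.7 kb upstream of GREM1, a secreted BMP antagonist made by intestinal stroma, held 5.13, 4.56, 5.49 and 3.02 in unstimulated (chr15:32684099-32684599). With IL-13 it held 0.388, 0.945, 0.902 and 1.05, and the log2 change was -1.94 ± 0.25 (limma adjusted p = 1.23e-09). At both peaks no IL-13 library reached the lowest unstimulated one.

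Further lead falls, 8 of the 12, were deposited under POPDC3, NKX2-3, LOC101928322, BDKRB1, IL12A, LOC101927421, UBN2 and LINC01335, with log2 changes from -2.27 at POPDC3 to -1.85 at LINC01335. NKX2-3 encodes a homeobox factor of gut mesenchyme, and the peak 27.8 kb from its start held 3.06, 3.12, 1.95 and 2.72 per Mb in unstimulated and 0.727, 0, 0 and 0.973 with IL-13 (log2 change -1.95 ± 0.33, limma adjusted p = 1.15e-05). BDKRB1 encodes the inducible bradykinin receptor, but the lead peak deposited under it lies 38.7 kb upstream of its start, in the body of BDKRB2. That peak went from 5.32, 2.28, 3.57 and 6.37 to 0.5, 0.441, 1.39 and 0.844 (log2 change -1.89 ± 0.29, limma adjusted p = 3.62e-07). TGANTCA stood in 5 of the 12 lead lowered peaks, among them SIM1, POPDC3, LOC101928322 and LOC101927421.

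**Figure D2:**
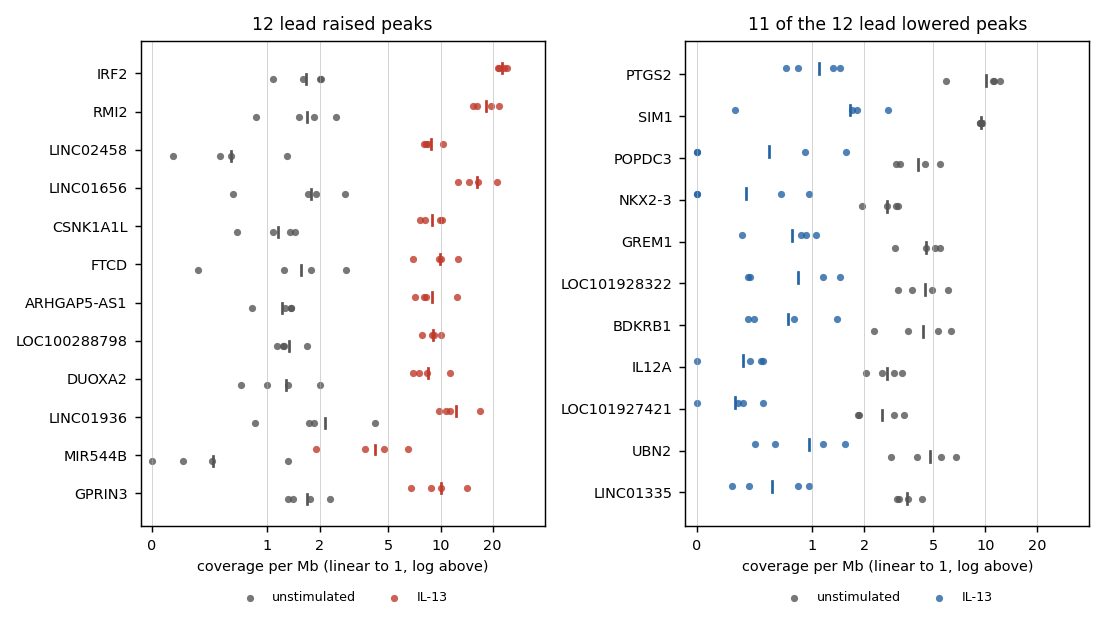
Coverage per Mb (horizontal axis, linear to 1 and log above) of the 12 lead raised peaks (left) and 11 of the 12 lead lowered peaks (right) in each unstimulated library (grey points) and each IL-13 library (coloured points), with bars at the group means. The 4 points of one group never overlap those of the other in any of those shown, and the IRF2 peak moves from 1.07 to 2.03 up to 21.6 to 24.2.

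Of the SOCS family, which binds activated Janus kinases and receptors, 3 of 8 start peaks rose and 0 fell, namely SOCS1, CISH and SOCS7. Over all genes, start peaks rose for 1.43% and fell for 0.363% of 15706 protein coding genes. The SOCS1 start held 13.8, 15.2, 14.3 and 10.2 per Mb in unstimulated and 19.6, 31.5, 35.9 and 27.2 with IL-13, without overlap (log2 change 1.05 ± 0.14, limma adjusted p = 6.06e-09). The SOCS7 start rose from a mean of 14.2 to 21.9 (0.61 ± 0.14, limma adjusted p = 0.00265), a call that was lost with correction for GC content (adjusted p = 0.12).

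Downstream of SOCS1 lay a dense group of openings that includes the second largest rise. Within 50 kb of the SOCS1 start, 11 of 58 tested peaks rose and 0 fell, all 11 in a stretch of 10.7 kb. The 3 largest lay 4.93 to 6.38 kb past the start, at log2 changes of 2.66, 2.91 and 3.13, and are deposited under the neighbouring RMI2, a subunit of the complex that dissolves recombination intermediates with BLM. The middle one held 3.00, 4.20, 3.28 and 1.43 per Mb in unstimulated and 22.1, 22.2, 25.9 and 27.5 with IL-13 (limma adjusted p = 1.8e-19). Neighbouring peaks share a locus and can share reads, so they are not independent of one another. Of these 11 peaks, 1 held TTCNNNNGAA and 2 held TGANTCA.

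At CISH, 7 of 33 tested peaks within 50 kb rose and 0 fell. The peak just upstream of its start held 31.4, 34.4, 37.8 and 38.0 per Mb in unstimulated and 66.2, 66.7, 58.1 and 67.5 with IL-13, with no overlap (log2 change 0.86 ± 0.10, limma adjusted p = 4.59e-12). The CISH start peak rose by 0.75 ± 0.19 (limma adjusted p = 0.0107). At 10.5 kb downstream, the peak whose sequence is printed above (chr3:50601022-50601522) held 3 matches to TTCNNNNGAA and went from 16.7, 16.9, 18.6 and 11.6 to 31.8, 24.9, 36.3 and 32.6 (0.96 ± 0.15, limma adjusted p = 9.47e-07).

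Among 17 genes of the receptor and its signalling, 15 had a start peak and limma called 0 of them. At an unadjusted p under 0.05 there were 3 (20%, against 14.2% of all coding starts). Calls were made at 1.43% (raised) and 0.363% (lowered) of all coding starts. The start of IL4R, the signalling chain, went from 11.8, 10.4, 9.13 and 12.3 per Mb to 11.1, 14.3, 21.7 and 14.0 (log2 change 0.44 ± 0.16, limma adjusted p = 0.185), with overlapping groups. IL13RA1, the binding chain, went from 1.39 to 0.913 (adjusted p = 0.673) and STAT6 from 3.46 to 2.47 (adjusted p = 0.711) by group means in limma's test. An intronic peak of IL4R, 22.1 kb past the start, was lowered from 8.03, 8.06, 7.89 and 10.7 to 5.21, 3.62, 2.87 and 4.98 (-0.99 ± 0.19, limma adjusted p = 0.000235). None of the 14 peaks tested within 50 kb of IL13RA2, the decoy receptor, was called. The one 48.5 kb upstream (chrX:115068208-115068708), with 3 matches to TTCNNNNGAA, went from 1.08, 0.589, 1.06 and 0.303 to 3.40, 2.36, 1.51 and 2.55, separated but short of the threshold (1.25 ± 0.39, limma adjusted p = 0.0696).

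Of 32 type 2 response genes, 21 had a start peak, of which 2 rose (9.52%, against 1.43% of all coding starts) and 0 fell. POSTN, which encodes periostin, opened at its start from 0.339, 0, 1.59 and 0.501 per Mb to 2.51, 4.18, 2.28 and 2.42 (log2 change 1.76 ± 0.40, limma adjusted p = 0.00266, and 0.0579 without unstimulated replicate 2). CCL11, the gene of eotaxin-1, rose at its start from 7.57, 9.38, 9.23 and 4.82 to 17.8, 10.8, 15.4 and 15.6 (0.92 ± 0.24, limma adjusted p = 0.0136). That call was lost without IL-13 replicate 1 and without unstimulated replicate 4, where the adjusted p reached 0.177. In CCL26, the gene of eotaxin-3, the start held 0.628 and 0.529 by group means (log2 change -0.12, limma adjusted p = 0.954). The intronic CCL26 peak printed above, 17.5 kb past that start (chr7:75772121-75772621), rose from 6.03, 8.74, 8.26 and 8.72 to 31.0, 24.2, 21.4 and 25.7. Its groups did not overlap, and its log2 change was 1.63 ± 0.19 (limma adjusted p = 2.43e-11). It was the 1 raised peak of 25 within 50 kb.

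Collagen VI genes held the raised stretches with the most peaks. The tandem genes COL6A1 and COL6A2 encode chains of the beaded filament collagen of the pericellular matrix. From 40 kb before to 190 kb past the start of COL6A1, a span that ends beyond FTCD, 43 of 121 tested peaks rose and 0 fell. In the COL6A1 stretch, 20 of 33 tested peaks within 34.1 kb rose, 15 of them in the gene body, by a median of 1.74 on the log2 scale. The exonic peak with the largest change there held 2.33, 1.2, 3.22 and 0.617 per Mb in unstimulated and 7.51, 8.49, 11.4 and 9.45 with IL-13 (2.18 ± 0.32, limma adjusted p = 1.64e-07). The start peak of COL6A1 was not among them, at 6.98 against 6.11 (log2 change -0.19, adjusted p = 0.83). At the COL6A2 start, coverage went from 8.38, 9.12, 8.47 and 6.46 to 16.9, 26.1, 22.3 and 17.9 (1.30 ± 0.18, limma adjusted p = 6.05e-09). TTCNNNNGAA stood in 4 of the 20 peaks of the COL6A1 stretch and in 0 of the 18 of the stretch over COL6A2 and FTCD. Stretches were formed after the calls were known, by joining called peaks with gaps of at most 20 kb.

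Of 36 matrix genes with a start peak, the collagen VI genes included, 3 rose (COL6A2, TIMP3 and LOX) and VCAN fell. That is 8.33% raised and 2.78% lowered, against 1.43 and 0.363% of all coding starts. Of 1932 peaks named for genes of this list 79 rose (4.09% against 0.730% of all tested) and 27 fell (1.4% against 0.880%). COL6A1, COL6A2 and COL6A3 gave 24, 9 and 6 of the 79. TIMP3, a matrix-bound inhibitor of metalloproteinases, went from 6.16, 5.07, 7.02 and 8.73 to 13.9, 16.6, 18.1 and 15.6 (log2 change 1.21 ± 0.18, limma adjusted p = 2.75e-07). LOX, which crosslinks collagen, rose by 0.55 (adjusted p = 0.0295) and VCAN, the proteoglycan versican, fell by 0.67 on the log2 scale (adjusted p = 0.0435) in limma's test. Both weaker calls were lost on leaving out single libraries, 6 of 8 for LOX (adjusted p up to 0.155) and 4 of 8 for VCAN (up to 0.347). COL1A1 and THBS1 were not called at their starts (0.32 and 0.30, adjusted p = 0.182 and 0.281 in limma's test), but a stretch over SGCA and COL1A1 held 16 raised peaks in 32.3 kb and one over THBS1, which encodes thrombospondin-1, held 14 in 19.5 kb. TNC, the gene of tenascin C, held 8 raised peaks in its body while its start was not called (adjusted p = 0.148).

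Most called starts of matrix proteases fell. Of 18 starts of metalloproteinase and ADAMTS genes, ADAMTS2, a procollagen processing enzyme, rose (1.15, limma adjusted p = 0.00474), and MMP3, MMP1, ADAMTS5 and MMP14 fell. That is 5.56% raised and 22.2% lowered, against 1.43 and 0.363% of all coding starts. MMP3, stromelysin-1, held 5.49, 4.89, 5.89 and 5.21 per Mb in unstimulated and 2.12, 0.744, 2.95 and 2.80 with IL-13, with no overlap (-1.25 ± 0.23, limma adjusted p = 7.55e-05). The collagenase gene MMP1 fell by 0.74 (adjusted p = 0.0337), the aggrecanase gene ADAMTS5 by 0.69 (adjusted p = 0.00745) and MMP14, a membrane-bound activator, by 0.62 on the log2 scale (adjusted p = 0.00753) in limma's test. The MMP1 call was lost under 10 of 21 alternatives, with an adjusted p up to 0.318 without IL-13 replicate 3.

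Contractile genes opened at some starts and along gene bodies. Of 541 peaks named for this list, 33 rose (6.10%, against 0.730% of all tested) and 2 fell. Start peaks rose for 2 of 14 genes (14.3%, against 1.43% of all coding starts), namely ACTG2, enteric smooth muscle actin, and TAGLN, transgelin. ACTG2 went from 22.7, 23.6, 25.5 and 22.9 per Mb to 44.6, 31.0, 46.8 and 41.8 (log2 change 0.77 ± 0.13, limma adjusted p = 9.42e-06). TAGLN went from 64.5, 56.3, 53.6 and 48.8 to 74.5, 81.7, 75.5 and 77.8 (0.47 ± 0.08, limma adjusted p = 1.18e-05). Neither gene's groups overlapped.

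In TPM1, tropomyosin 1, a stretch of 29.3 kb held 12 raised peaks, 11 of them in the gene body, while the start went from 24.7 to 29.5 (log2 change 0.24, limma adjusted p = 0.449). At ACTA2, which encodes alpha smooth muscle actin, the start held 9.66, 11.0, 10.7 and 7.43 in unstimulated and 7.39, 10.0, 8.25 and 11.0 with IL-13, with overlap (-0.08 ± 0.20, limma adjusted p = 0.939). A stretch of 36.4 kb deposited under ACTA2-AS1 and FAS held 8 raised peaks, 6 of them in the ACTA2 body and all 8 in that of STAMBPL1. One of these, 0.988 kb upstream of the death receptor gene FAS, held 20.1, 20.8, 24.7 and 12.4 in unstimulated and 50.9, 43.2, 47.7 and 50.3 with IL-13 (1.32 ± 0.14, limma adjusted p = 1.2e-13). A further stretch of 10 raised peaks lay beside ACTB.

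The 10 lowered stretches lay at NR4A1, IGFBP5, the bradykinin receptors, PTGS2, FOS, PLK2 and PHLDA1 and at peaks deposited under LINC01108, MIR4756 and ZMIZ1-AS1. Of 23 peaks tested within 50 kb of PTGS2, 8 fell and 0 rose, and these 8 were 8 of the 9 tested peaks in a stretch of 9.71 kb. The lead one (chr1:186671072-186671572) held 5.91, 12.1, 11.3 and 11.1 per Mb in unstimulated and 0.771, 0.874, 1.44 and 1.32 with IL-13 (-2.70 ± 0.22, limma adjusted p = 1.58e-23). Its neighbour 10.5 kb past the start fell from 6.02, 11.5, 8.62 and 10.6 to 0.966, 0.945, 1.73 and 1.43 (-2.44 ± 0.22, limma adjusted p = 3.05e-19). The PTGS2 start itself went from 8.63, 8.18, 13.1 and 11.4 to 9.84, 7.43, 9.07 and 7.58, with overlap (-0.25 ± 0.18, limma adjusted p = 0.641). Over the 19 starts of the prostaglandin list limma called 0, where 1.43% of all coding starts rose and 0.363% fell. At an unadjusted p under 0.05 there were 3 (15.8%, against 14.2% of all coding starts). Of the 8 PTGS2 peaks, 1 held TTCNNNNGAA and 3 held TGANTCA.

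The stretch at the bradykinin receptors held 11 lowered peaks in 44.9 kb, 10 of them in the body of BDKRB2, the constitutive receptor. One of 29.2 kb at NR4A1, an orphan nuclear receptor induced within minutes of stimulation, held 13 lowered peaks, 10 in the gene body. IGFBP5, which binds insulin-like growth factors in the matrix, had 12 in 19.4 kb. At FOS, an immediate early AP-1 subunit, 7 of 60 peaks from 25 kb before to 45 kb past the start fell. The lowest of these held 13.2, 11.5, 16.4 and 11.9 per Mb in unstimulated and 7.63, 7.08, 4.69 and 5.82 with IL-13 (log2 change -1.02 ± 0.18, limma adjusted p = 3.43e-05). Its mean with IL-13 was 6.3, and it was 4.62 with TNF, 7.22 with IL6 and 7.6 with IFNA. Against the mean of the other 9 cytokine groups, 4 of these 7 peaks, 6 of the 13 at NR4A1 and 7 of the 12 at IGFBP5 were also lower. The FOS start was not called (-0.32, adjusted p = 0.34 in limma's test). PLK2, a serum-inducible kinase gene, and PHLDA1 each had a stretch of 5 lowered peaks. Stretches of 5 or more peaks numbered 22 among raised peaks, holding 6.53% of them, and 10 among lowered peaks, holding 2.12%.

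**Figure D3:**
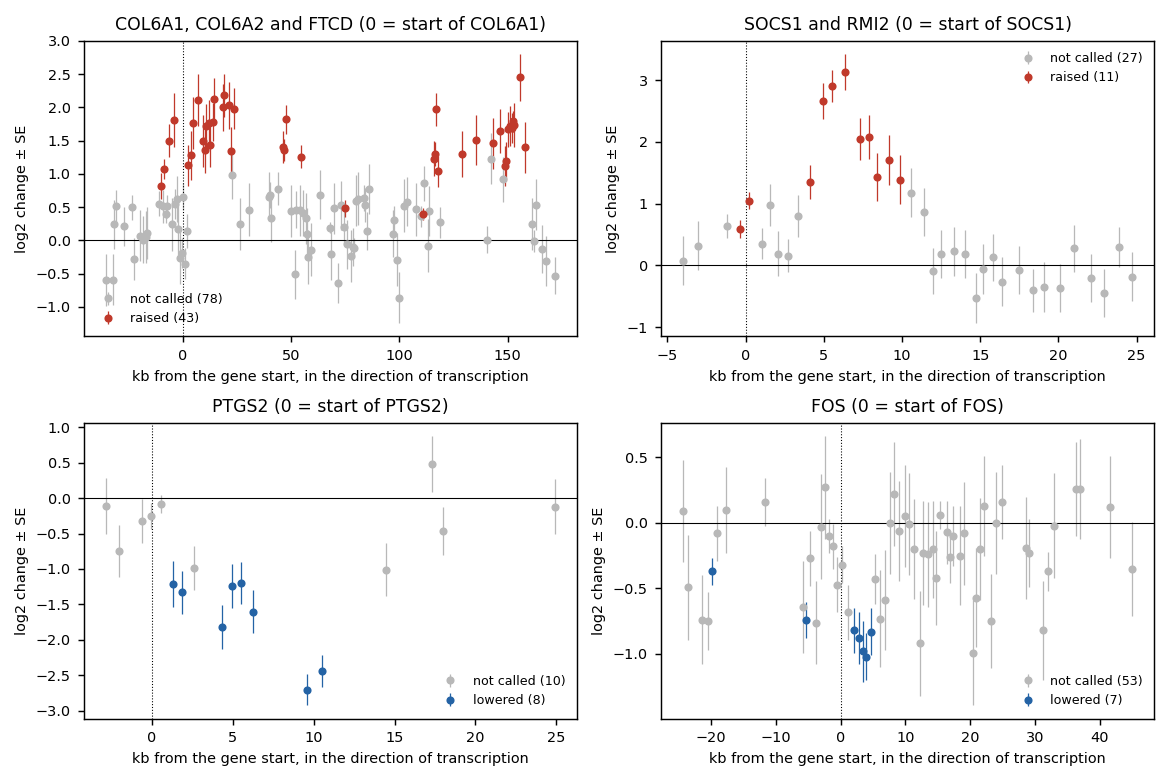
Log2 change with its SE (vertical axis) of each tested peak against its distance in kb from the start of COL6A1, SOCS1, PTGS2 or FOS, counted in the direction of transcription (horizontal axis), with raised peaks in red, lowered peaks in blue and peaks without a call in grey. Raised peaks number 43 of 121 around COL6A1 and 11 of 38 around SOCS1, and lowered peaks 8 of 18 around PTGS2 and 7 of 60 around FOS.

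Of 29 inflammatory fibroblast genes, IL1R1, the IL-1 receptor, rose (0.38, limma adjusted p = 0.0143), and CXCL8 and IL1B fell. These are 3.45% raised and 6.9% lowered, against 1.43 and 0.363% of all coding starts. CXCL8, the neutrophil chemokine IL-8, held 3.05, 2.09, 2.11 and 1.83 per Mb in unstimulated and 0.969, 0.630, 0.454 and 0.452 with IL-13 (-1.30 ± 0.30, limma adjusted p = 0.00309). IL1B fell by 0.86 on the log2 scale (limma adjusted p = 0.0206) and was no longer called under 7 of 21 alternatives, 5 of them the loss of a single library (adjusted p up to 0.0973, without unstimulated replicate 4). Of 17 AP-1 and C/EBP factors, 2 starts rose (11.8% against 1.43% of all coding starts), among them CEBPD (0.85, limma adjusted p = 0.000176). Of 486 peaks named for the list, 12 fell (2.47% against 0.880% of all tested), 7 of them FOS and 3 FOSB. Another 5 rose (1.03% against 0.730%). Of 21 TGF-beta and BMP genes, SKIL, a repressor of SMAD signalling, was raised by 0.54 (limma adjusted p = 0.0461), a call lost under 13 of 21 alternatives. That is 4.76% of these starts, against 1.43% of all coding starts.

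For 15 STAT and IRF factors limma called 0 starts (1 at an unadjusted p under 0.05), and for 20 interferon response genes 0 (4 at an unadjusted p under 0.05). Of 292 peaks named for the latter 0 were called, where 0.730% of all tested peaks rose and 0.880% fell. In all, 12 pathway lists of 259 genes gave 229 start peaks, of which 15 rose and 7 fell. Over all coding starts 1.43% rose, 0.363% fell and 14.2% had an unadjusted p under 0.05 in limma's test. Without unstimulated replicate 2 the calls fell from 22 to 14. Beyond the losses given above, a single left-out library ended the call at IL1R1 (either of IL-13 replicates 1 and 3 or unstimulated replicate 2, limma adjusted p up to 0.13), ADAMTS2 (unstimulated replicate 2, 0.101), ADAMTS5 (replicate 1 of either group, up to 0.0986), MMP14 (IL-13 replicate 2 or unstimulated replicate 1, up to 0.0879) and EPCAM (IL-13 replicate 2 or unstimulated replicate 3 or 4, up to 0.194).

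Over all coding genes, the largest changes within 1 kb of a coding gene's start were at RMI2 (3.13) and COL6A2, where a peak 0.565 kb past the start went from 3.64, 2.12, 4.41 and 2.53 per Mb to 12.7, 14.5, 16.2 and 11.0 (1.97 ± 0.25, limma adjusted p = 2.26e-10). DBN1, the actin-binding drebrin, rose from 3.32, 3.55, 3.94 and 4.16 to 13.4, 10.3, 12.2 and 12.1 (1.56 ± 0.23, limma adjusted p = 1.03e-07). The potassium channel gene KCNJ12, NFYB, PIP5K1B, the demethylase gene TET3 and the scramblase gene PLSCR4 followed with 1.49, 1.43, 1.38, 1.32 and 1.29. At the first 3 of these 5 the call held when any single library was left out, whereas that at TET3 was lost without IL-13 replicate 2 (limma adjusted p = 0.0594) and that at PLSCR4 without any of 6 libraries (up to 0.104).

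Among falls at starts, BACH1, a repressor of heme oxygenase, led with 2.68, 2.64, 1.55 and 1.02 per Mb in unstimulated and 0.581, 0, 0 and 0.893 with IL-13 (-1.59 ± 0.35, limma adjusted p = 0.00195). OSBPL10, an oxysterol binding protein gene, went from 2.88, 2.65, 2.68 and 4.24 to 0.667, 0.933, 0.679 and 0.887 (-1.47 ± 0.29, limma adjusted p = 0.000332). PPP1R1C, PYGO2, TRPV3, PLAGL1, OSBP2 and CLK4 were lowered by a log2 change of between -1.5 at PPP1R1C and -1.16 at CLK4. All 6 lost the call when at least 1 single library was left out, with the adjusted p reaching 0.374 at TRPV3 without IL-13 replicate 2.

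Raised and lowered peaks differed in where they lay and in their level before stimulation. The median unstimulated level was 5.14 per Mb among raised peaks, 6.51 among lowered peaks and 0.831 among all tested peaks. Within 1 kb of any gene start lay 18.2% of raised, 6.53% of lowered and 11.8% of all tested peaks. With correction for GC content the share of raised peaks near a start was 11.3%, and among those raised by a log2 change of at least 1 it was 8.25%. The class in the deposited names gave the same order, with 10.1, 3.57 and 7.15% as promoter and 31.2, 41.9 and 34.5% as distal. Mean GC content was 49.0% in raised, 44.4% in lowered and 46.7% in all tested peaks. Such shares vary with level. Among peaks between 6.00 and 14.7 per Mb, 22.1% of raised, 6.70% of lowered and 32.8% of all peaks lay near a start; raised peaks thus stood below all peaks of like level.

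The letters of the STAT6 palindrome, TTCNNNNGAA, stood in 26.0% of raised peaks (Wilson 95% interval 24.4 to 27.6%), 11.5% of lowered peaks and 14.4% of all tested peaks. Intervals cover counting only, and shares of peaks are given as descriptions without a test. The share followed the size of the rise, from 20.9% of peaks raised by less than 1 on the log2 scale through 29.5% at 1 to 1.5 and 41.4% at 1.5 to 2 to 65.9% at 2 or more, which is 29 of 44 peaks (51.1 to 78.1%). Of the spacings from 0 to 8 bases, this one gave the widest gap between raised and all peaks. With 3 bases between the arms, the form that other STAT proteins prefer, the shares were 18.6, 15.5 and 17.2% in raised, lowered and all peaks. Spacings of 1, 2, 5, 6, 7 and 8 bases gave 13.7 to 15.3% in raised peaks. The match nearest the centre lay a median of 85.5 bases from it in 771 raised peaks, against 150.5 in 413 lowered peaks and 117.5 in 58609 among all tested, and within 50 bases in 30.2, 13.1 and 20.6%. More than 1 match stood in 12.7, 3.63 and 8.59% of these. The sequences printed above from LINC02458 and DUOXA2 are of this kind, with the nearest match 11.5 and 1.5 bases from the centre.

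The AP-1 letters, TGANTCA, showed the opposite side. They stood in 60.1% of lowered peaks (58.5 to 61.7%), 24.8% of raised peaks and 25.7% of all tested peaks. By size, the share was 66.2% among peaks lowered by less than 1 on the log2 scale, 54.3% at 1 to 1.5 and 50.3% at 1.5 to 2. In the central 200 bases it was 50.7, 17.2 and 18.8% in lowered, raised and all peaks. Among peaks of like level, between 6.00 and 14.7 per Mb, AP-1 letters stood in 64.1% of lowered and 32.1% of all peaks, and STAT6 letters in 24.6% of raised and 12.7% of all. Peaks with both strings were 9.32% of raised and 6.84% of lowered peaks.

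Further strings differed between the directions. The SRF site of contractile and immediate early genes was matched in 8.25, 2.65 and 3.21% of raised, lowered and all tested peaks, and the TEAD letters, CATTCC, in 40.8, 27.5 and 28.8%. GGGCGG, bound by SP factors, stood in 23.1, 8.93 and 16.0%. Among peaks between 6.00 and 14.7 per Mb, however, it stood in 25.8% of raised, 9.22% of lowered and 35.9% of all peaks. At like level, raised peaks thus held GGGCGG less often than all peaks did. The C/EBP letters, TTGCNNAA, stood in 24.5, 34.1 and 25.8% and the forkhead letters, TGTTTAC, in 10.3, 14.0 and 8.38%. NF-kB sites were matched in 8.28, 6.09 and 8.5%. All strings were searched on both strands over the 501 bases, and strings can overlap.

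**Figure D4:**
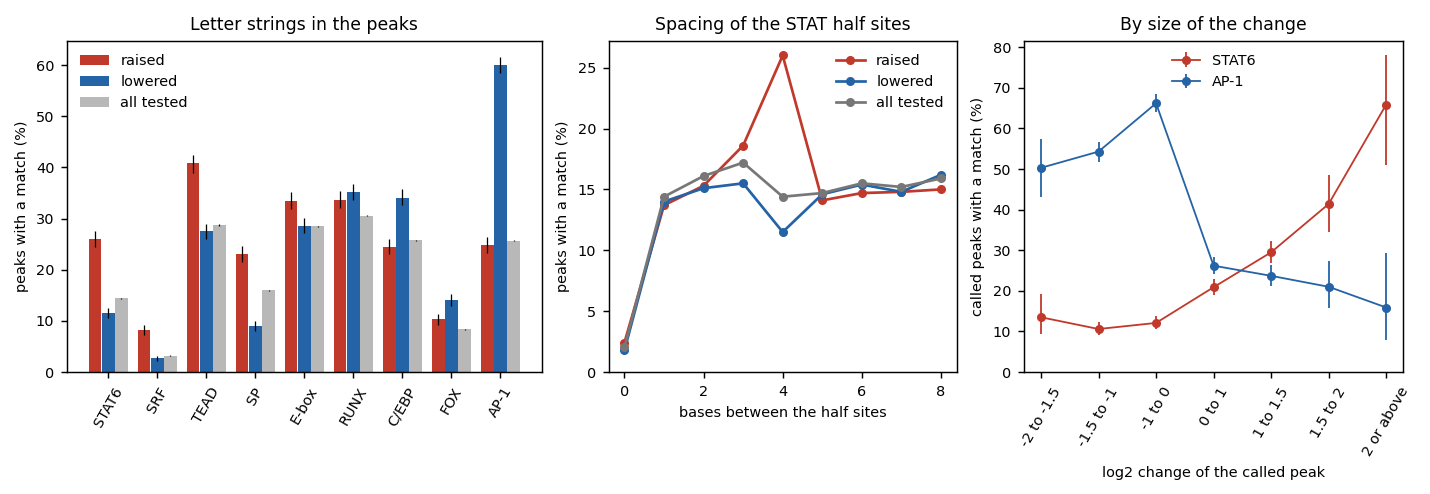
Left, percent of raised, lowered and all tested peaks with a match to each motif (vertical axis from 0, Wilson 95% intervals as lines); middle, percent with the STAT arms at each spacing in bases; right, percent of called peaks with STAT6 or AP-1 letters by class of log2 change, leaving out the 4 peaks at -2 or below. The raised line peaks at a spacing of 4 bases with 26.0%, and the STAT6 share runs from 20.9% to 65.9% with the size of the rise.

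IL-13 was last set against the mean of the other 9 cytokine groups in the same model. It was higher at 8753 peaks (2.15% of those tested) and lower at 12389 (3.04%). Both comparisons use the 4 IL-13 libraries, so they are not independent. Of all raised peaks 72.3% were also higher than this mean, and of all lowered peaks 85.8% were also lower. All 24 lead peaks passed the test in the same direction, from a log2 difference of 3.29 ± 0.24 at IRF2 (limma adjusted p = 8.1e-29) to -2.55 ± 0.14 at SIM1 (adjusted p = 3.09e-42). That mean covers single groups that came close to IL-13. With OSM the LINC01335 peak stood at 0.61 per Mb against 0.653 with IL-13, and the LOC101927421 peak at 0.606 against 0.334, and neither differed past the threshold (limma adjusted p = 0.987 and 0.573). Set against single groups, IL-13 passed the test in the same direction for 6 of 9 at the first and 8 of 9 at the second. Over all raised peaks, the share passing against a single group ran from 9.29% (IL6) to 73.2% (IL1B). Over all lowered peaks it ran from 12.4% (IL6) to 77.1% (IL1B). The LINC01936 peak, at 12.2 with IL-13 and 2.16 in unstimulated, was also higher than in unstimulated cells with IFNG (5.16), TGFB1 (5.12), TNF (5.67) and OSM (4.94). Limma's adjusted p was 0.00203, 0.0021, 0.000414 and 0.00453. The RMI2 peak was higher than in unstimulated cells with IFNG (limma adjusted p = 1.58e-07) and the DUOXA2 peak with IL1B (3.45 per Mb, 0.0129). With IL6, replicate 4 included, limma called LINC01936 (adjusted p = 0.0155), IRF2 (0.0125) and RMI2 (0.0292) higher than unstimulated. Without IL6 replicate 4 the calls in this comparison numbered 24214 against 21142. At the RMI2 peak the highest other group was IFNG, with 7.55 per Mb against 18.2 with IL-13, and at the SIM1 peak it was TGFB1, with 14.7 against 1.66. The PTGS2 peak that fell to 1.1 with IL-13 stood at 10.1 in unstimulated, 19.4 with IL17A and 35.1 with IL1B. It was also lower than in unstimulated cells with IL6 (3.85), TGFB1 (4.04), IL22 (4.16) and IFNA (4.38), with limma adjusted p = 0.000524, 1.67e-05, 0.00324 and 0.000237. CXCL8 stood at 0.626 with IL-13 and 23.8 with TNF at its start, and MMP3 at 2.15 with IL-13 and 14.8 with IL1B. Each was lower with IL-13 than with 7 of the 9 single groups. CXCL8 did not differ past the threshold from IL6 (0.979, limma adjusted p = 0.757) or IFNA (1.86, 0.114). MMP3 did not differ past it from IL6 (3.8, limma adjusted p = 0.12) or OSM (3.51, 0.0665).

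Some rises at gene starts did not stand apart from the other cytokines. NFYB rose by 1.43 against unstimulated but by 0.21 against the other 9 (limma adjusted p = 0.738), TET3 by 1.32 and 0.32 (0.591), PIP5K1B by 1.38 and 0.59 (0.119) and PLSCR4 by 1.29 and 0.67 (0.138). POSTN kept a difference of 1.58 (limma adjusted p = 1.87e-05), with at most 0.950 per Mb in any other group. Set against single groups, POSTN passed for 7 of 9, short of the threshold against IFNG (limma adjusted p = 0.0705) and IL17A (0.0791). FAS (1.45, adjusted p = 9.08e-29) and CCL11 (1.47, adjusted p = 2.49e-12) were likewise higher with IL-13 than with the others in limma's test.

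The library labelled IL6 replicate 4 stood near the IL-13 libraries at most lead raised peaks. It lay above the other 3 IL6 and the 4 unstimulated libraries at 12 of the 12 lead raised peaks and reached the lowest IL-13 library at 9, while no other IL6 library reached it at any. At IRF2 it held 28.4 per Mb against a mean of 3.13 in IL6 replicates 1 to 3. It lay above those 7 libraries at 63.6% of all raised peaks and 23.3% of all tested peaks. At the lead lowered peaks it lay below them at 6 of 12. The high IL6 group mean at IRF2, 9.46 per Mb, rested on this library.

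**Figure D5:**
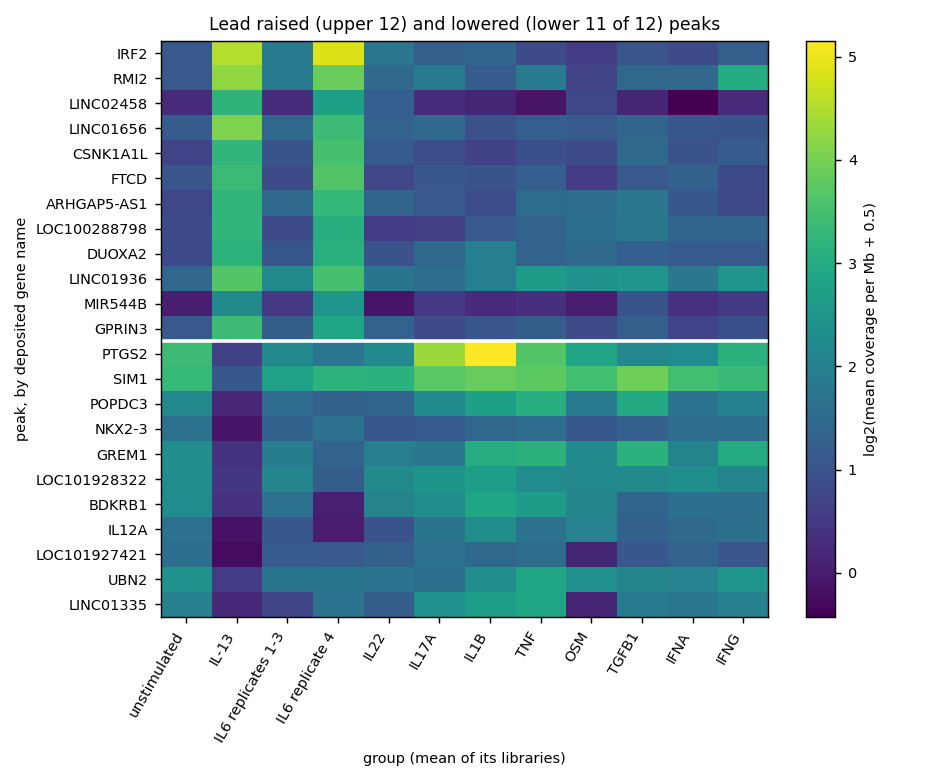
Colour gives log2 of the mean coverage per Mb + 0.5 of each group (columns) at the 12 lead raised peaks (upper) and 11 of the 12 lead lowered peaks (lower), with IL6 replicate 4 shown apart from IL6 replicates 1 to 3. IL-13 and IL6 replicate 4 are bright over the upper peaks, and IL-13 is dark over the lower ones, where PTGS2 is brightest with IL1B (35.1 per Mb).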

How the data were processed

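Ccd18-Co fibroblasts, unstimulated or given 1 of 10 cytokines, gave 44 ATAC-seq libraries in 11 labelled groups of 4. The authors processed paired-end reads with the ENCODE ATAC-seq pipeline (adaptor trimming, alignment to hg38, MACS2 peaks). As deposited, the signal of each of 407383 peaks is the sum of read coverage over its bases, unscaled. Peaks span 500 bases from start to end, the width the study describes for its single-cell peaks. The study's methods describe a filtered consensus set of bulk peaks of variable length, but how the fixed-width peaks of the deposited table were chosen is not given in the sources used here. Coverage sums are not counts: the most frequent low value, 75, was taken as the length of 1 read, and whole reads rather than transposase cut sites are summed, which widens each footprint. Peak names hold a gene and a class. All columns were matched to samples through library numbers in the labels.

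Coverage was divided by the library total in Mb and by a composition factor (trimming 30% of log ratios and 5% of means at both ends), and log2 was taken after adding 0.5. Peaks with a log2 mean of -3 or below were left out (209). The remaining 407174 entered limma 3.58.1 in R 4.3.3 with group as the term over all 44 libraries, eBayes with a trend, and Benjamini-Hochberg adjustment, because the study's count test does not suit coverage. The fit was run on simulated data with planted changes, where the only requirement was that their median changes had the planted direction. That run gives no error rate for these data. Total coverage was 239.8 to 656.1 Mb in IL-13 and 328.6 to 524.4 Mb in unstimulated libraries. Tables and motif searches used Python 3.11.15, pandas 2.3.3, scipy 1.17.1 and pysam 0.24.0.

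Named peaks were the 12 raised and 12 lowered calls that changed most, given a mean of at least 1 per Mb, separated groups and 100 kb between one another, and the 10 largest in each direction within 1 kb of a coding start by the same rule. The start peak of each list gene was the tested peak nearest to its start in GENCODE release 44 within 1 kb, and called peaks within 50 kb of 8 loci were described. Stretches of peaks and the genes in them were named after their values were seen. The members and lists were chosen with earlier results of these data known. Alternatives changed the scaling, pseudocount, filter, weights, GC correction, libraries, replicate block and left-out libraries. Results for some named items are not reported here. Motif shares, class shares and distances were not tested.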

Additional observations from a re-analysis of the deposited data

Results flagged for a closer look

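Among 90 groups of 4 libraries at the named peaks, 4 held a library far from the other 3, and chance gives about 1 in 20. The PTGS2 lead peak had 5.91 per Mb in unstimulated replicate 1 beside 11.1, 11.3 and 12.1, still above every IL-13 library. The POSTN start had 4.18 in IL-13 replicate 2 beside 2.28, 2.42 and 2.51. The PLSCR4 start had 1.24 in IL-13 replicate 2 beside 2.90, 2.99 and 3.12, which is close to the highest unstimulated library at 1.11. The OSBPL10 start had 4.24 in unstimulated replicate 4 beside 2.65, 2.68 and 2.88.

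The level with IL-13 at 24 of 24 lead peaks also differed from the mean of the other 9 cytokine groups by limma's test, in the direction of its difference from unstimulated, with the 4 IL-13 libraries used in both comparisons. Of all raised peaks 72.3% did so, and of all lowered peaks 85.8%.

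The library labelled IL6 replicate 4 is in neither of the groups compared. It enters the comparison of IL-13 with unstimulated cells only through the composition factors, the filter on low coverage and the shared estimate of spread. It lay above the other 3 IL6 and the 4 unstimulated libraries at 12 of 12 lead raised peaks. The origin of that library was not tested, and it stays under its label here.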

How the results depend on the processing

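Of 89 named peaks, 57 were called under every alternative. Over 1866 values of these peaks under 21 alternatives, 1725 kept the call, 141 kept the direction without the call and 0 reversed. The calls numbered 6553 (2971 raised, 3582 lowered). Correction for GC content gave 3087 raised and 2344 lowered, so raised peaks were 56.8% of calls against 45.3%, and centring on GC moved the median of all peaks from -0.046 to 0. With only the 8 IL-13 and unstimulated libraries raised peaks were 55.8% of calls. A rule that also asks for a log2 change of at least 1 gave 3086 calls. The cause of these shifts was not tested. Leaving out 1 library of either group gave 4091 to 6167 calls, 1845 to 2454 raised, 2246 to 3748 lowered, 14147 to 21254 against the other cytokines, and 14 to 20 at list starts (22 with all libraries). The fewest calls came without unstimulated replicate 4. Without IL6 replicate 4 there were 8133 calls (3634 raised, 4499 lowered), 24214 against the other cytokines and 24 at list starts.

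Replicate numbers of the IL-13 and unstimulated libraries did not pair them, as same-numbered deviations correlated at 0.00598, -0.00757, 3.9e-05 and 0.00848. The fit with a replicate block gave 6714 calls, and with the block and GC correction 5676. Depth limited low peaks most, since a library of 239.8 Mb gives few reads to a peak near the median level of 0.831 per Mb.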
